A study of Saccharomyces cerevisiae with 17 samples.

Results

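Decapping and 5' to 3' decay of mRNA were followed through 10 genes of budding yeast, Saccharomyces cerevisiae, taken by name from the 7126 features of a count table. They were XRN1 (YGL173C), DCP1 (YOL149W), DCP2 (YNL118C), EDC1 (YGL222C), EDC2 (YER035W), EDC3 (YEL015W), DHH1 (YDL160C), PAT1 (YCR077C), SCD6 (YPR129W) and DCS1 (YLR270W), and all 10 passed the filter on low counts that left 6195 features for testing. In all 17 libraries the strain was BY25598, of mating type MATa, with ADH1-OsTIR1-9Myc(URA3) at ura3-1 and with XRN1-AID (HIS). It further carried ade2-1, his3-11,15, the LEU2 double mutation of leu2-3 and leu2-112, and also trp1-1 and can1-100. Xrn1 therefore carried an auxin-inducible degron in both arms, and the plant auxin receptor OsTIR1 was expressed from the ADH1 promoter in both. Xrn1-AID cells received 500 µM auxin for 30 min, and Xrn1-WT cells were the same tagged strain without auxin, with no solvent control named in the labels. Log-phase cells in YPD at 30 °C were sampled after 0, 10 and 30 min of 0.4 M NaCl, with 2 libraries for Xrn1-AID at 30 min and 3 for each of the other 5 groups. The submitters state that under 10% of the Xrn1 protein was left after 30 min of auxin. The question of the design was how loss of Xrn1 changes the response to osmotic stress.

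In yeast most mRNAs are first shortened at the poly(A) tail, and then lose their 5' cap to the Dcp1–Dcp2 decapping enzyme. Pat1, the helicase Dhh1, Scd6 and the Edc proteins promote decapping, and Xrn1 then degrades the uncapped body from its 5' end. The scavenger enzyme Dcs1 hydrolyses the cap structure left by decay from the 3' end and also stimulates Xrn1. Of the 10 mRNAs, DCS1 and EDC2 rose with NaCl in both arms, and DCP1 fell with NaCl in Xrn1-WT. Before NaCl, XRN1 mRNA was higher and DCP1 and EDC3 mRNA lower in Xrn1-AID. Under 27 alternative settings described below, the XRN1 call held in 25 and the EDC3 call in 22. The other calls named here held in all 27.

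The 4 stretches below are shown because they lie upstream of the 3 listed genes called higher after NaCl (EDC1, EDC2 and DCS1) and of DCS2, a paralog of DCS1 that is described with the other pathway genes. Each spans bases 300 to 101 before the start codon, read 5' to 3' along the gene in RefSeq's genome of the sacCer3 build. Capitals mark AGGGG or its reverse complement CCCCT, the core of the stress response element bound by the transcription factors Msn2 and Msn4. EDC1 is chrVII:81287-81486 on the minus strand, EDC2 is chrV:222339-222538 on the plus strand, DCS1 is chrXII:680886-681085 on the plus strand and DCS2 is chrXV:656964-657163 on the plus strand.
EDC1: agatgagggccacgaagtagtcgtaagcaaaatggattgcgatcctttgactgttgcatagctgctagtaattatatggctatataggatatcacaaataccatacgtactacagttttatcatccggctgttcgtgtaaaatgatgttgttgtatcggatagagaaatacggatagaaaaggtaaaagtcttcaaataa
EDC2: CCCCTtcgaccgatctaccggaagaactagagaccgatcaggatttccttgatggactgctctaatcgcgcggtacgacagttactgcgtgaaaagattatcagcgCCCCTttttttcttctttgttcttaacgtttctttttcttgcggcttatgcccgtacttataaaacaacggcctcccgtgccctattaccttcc
DCS1: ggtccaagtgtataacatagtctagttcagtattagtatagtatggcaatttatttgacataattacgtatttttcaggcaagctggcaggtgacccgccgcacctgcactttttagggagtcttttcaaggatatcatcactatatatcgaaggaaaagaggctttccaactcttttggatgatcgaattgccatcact
DCS2: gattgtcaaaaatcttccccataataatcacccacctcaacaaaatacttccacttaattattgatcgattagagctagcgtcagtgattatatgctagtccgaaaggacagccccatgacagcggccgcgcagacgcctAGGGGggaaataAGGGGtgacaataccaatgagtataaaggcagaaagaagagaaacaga
The 5 letters occurred on either strand in this window in 16.3% of 6001 genes. EDC2 and DCS2 each held 2 copies, starting at positions -300 and -194 of EDC2 and at -160 and -148 of DCS2, counted from the first base of the start codon with the base before it at -1. The copy at -300 lay inside the coding sequence of its neighbour YER034W. EDC1 and DCS1 held none, also not within 500 bases of the start codon, where 34.1% of 6000 genes held at least 1. Among the others, PAT1 held 1 copy at -210 and DCP2 1 copy at -340, and XRN1, DCP1, EDC3, DHH1 and SCD6 held none within 500 bases. A match describes the letters only.

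Levels are counts per 1 M counts (CPM) scaled with TMM factors, which assume that most genes do not change between libraries. The factors ran from 0.76 to 1.16 at 0 min, from 0.59 to 0.88 at 10 min and from 1.19 to 1.48 at 30 min. Higher and lower are thus relative to the other mRNAs of a library, and the counts do not measure total mRNA per cell. Total counts ranged from 13.9 to 30.4 M per library, and the 10 genes had between 186 and 11728 counts each. Counting error was not separated from the spread between libraries for single genes. That spread was small in some groups, with a coefficient of variation of 0.61% for SCD6 in Xrn1-AID at 30 min (n = 2). Replicates differed beyond counting noise in each of the 16 same-group pairs of libraries, with a chi-square per degree of freedom from 12.5 to 491. Xrn1-WT 0 min replicate 3 and Xrn1-WT 10 min replicate 2 stood apart from their groups, with values of 275 and 491 and of 166 and 221 against their partners. Whether replicates came from separate cultures is not stated in the labels, and the p-values measure only the spread between these libraries, which may be technical. Xrn1-WT 0 min replicate 1 held more mRNA of salt-induced genes than its partners, for example 241 against 19.8 and 33.7 CPM of HSP12. STE2, the α-factor receptor of MATa cells, stood at 88.0 to 353 CPM, while the MATα gene STE3 did not exceed 1.03 CPM. In these bulk samples, fewer cells with a transcript and less RNA per cell cannot be told apart.

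Single Xrn1-WT libraries lay far from their group means for several of the 10 genes. In Xrn1-WT 0 min replicate 3 the log2 CPM lay 0.88 below the group mean for XRN1, whose coding sequence is 4587 bases, 1.08 below for DHH1 (1521 bases), 0.61 below for DCP2 (2913 bases) and 0.72 below for PAT1 (2391 bases), and 1.07 above for EDC1 (528 bases). The shortest gene, EDC2 (438 bases), and EDC3 (1656 bases) deviated by -0.003 and 0.19 in that library, and DCP1, SCD6 and DCS1 by 0.13, 0.05 and -0.15, so the deviations of the 10 genes did not follow length in strict order. Replicate 2 of that group deviated the other way, by 0.77 for XRN1 and -1.04 for EDC1. Xrn1-WT 10 min replicate 2 deviated by -0.69 for XRN1 and 0.72 for EDC1. Across 5768 genes, the Spearman correlation between a library's deviation and coding length was -0.34 in Xrn1-WT 0 min replicate 3, 0.50 in replicate 2 of that group and -0.60 in Xrn1-WT 10 min replicate 2; genes are not independent replicates. Values without both Xrn1-WT 0 min replicate 3 and Xrn1-WT 10 min replicate 2 are given gene by gene below, and of the 120 tests of the 10 genes those whose call they change are all named.

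**Figure D1:**
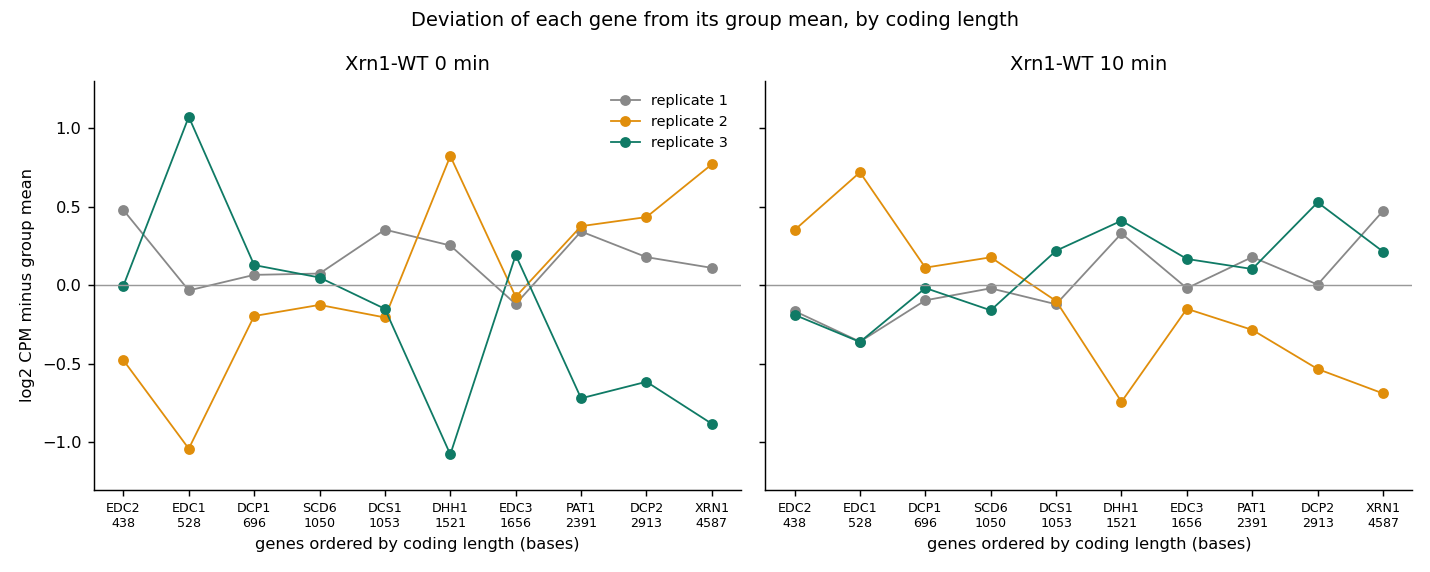
Log2 CPM of each gene minus the mean of its group (vertical axis) for the 3 libraries of Xrn1-WT at 0 min (left) and 10 min (right), with genes ordered by coding length in bases. At 0 min replicates 2 and 3 lie on opposite sides for EDC1 and for DHH1, PAT1, DCP2 and XRN1, and at 10 min replicate 2 is above the mean for the 4 shortest genes and below it for the others.

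Divided by coding length, the order of the 10 levels changed with NaCl. At 0 min SCD6 led in both arms, with 128 ± 10.2 CPM per kb in Xrn1-AID and 137 ± 10.1 CPM per kb in Xrn1-WT (SD, n = 3 each), and its libraries did not overlap those of the next gene. That next gene was EDC2 in Xrn1-AID (82.6 ± 17.1 CPM per kb) and DCP1 in Xrn1-WT (102 ± 11.8 CPM per kb). In Xrn1-AID at 0 min, EDC3 and PAT1 overlapped each other, DCP1 overlapped DCS1, and EDC1, DHH1 and DCP2 formed an overlapping run. In Xrn1-WT at 0 min each gene from EDC3 down to XRN1 overlapped its neighbour in the order EDC3, EDC2, PAT1, EDC1, DCS1, DCP2, DHH1 and XRN1. XRN1 stood last in all 6 groups, between 5.46 CPM per kb in Xrn1-WT at 0 min and 12.8 CPM per kb in Xrn1-AID at 0 min. EDC2 and DCS1 held the first 2 places at 10 and 30 min in both arms, with EDC2 at 403 and 564 CPM per kb in Xrn1-AID and DCS1 at 451 CPM per kb in Xrn1-WT at 30 min.

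**Figure D2:**
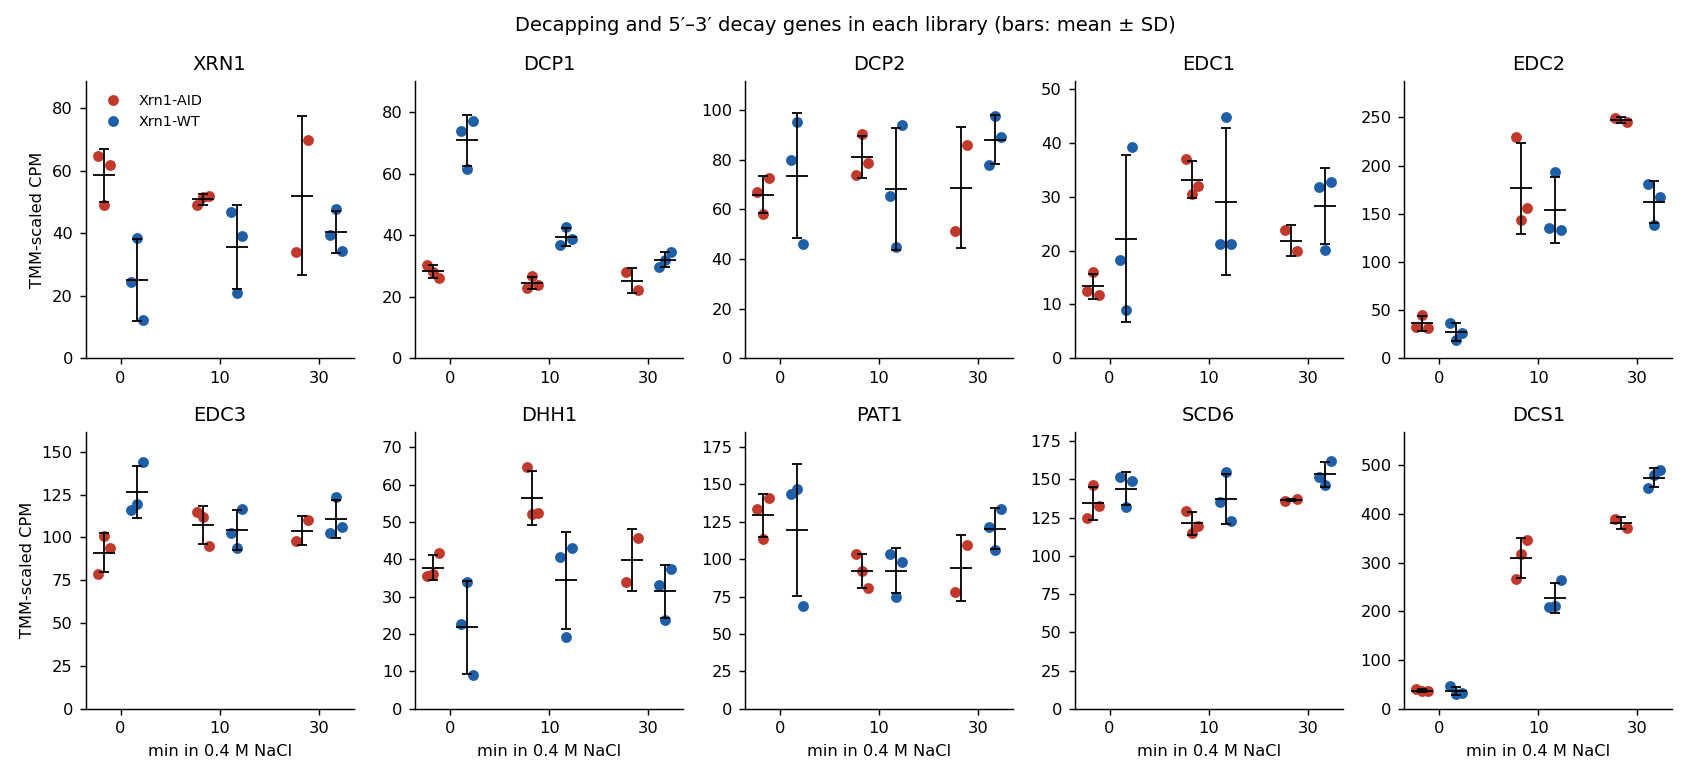
TMM-scaled CPM (vertical axis, from 0, scaled for each gene) of the 10 genes at 0, 10 and 30 min of 0.4 M NaCl, with Xrn1-AID in red to the left of Xrn1-WT in blue. Each dot is a library and the bars give the mean ± SD of 3 libraries, or of 2 for Xrn1-AID at 30 min; DCS1 and EDC2 are higher at 10 and 30 min than at 0 min in every library of both arms, and DCP1 stands highest in Xrn1-WT at 0 min.

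The genes were tested with edgeR's quasi-likelihood test, fitted over all 6195 features, with Benjamini-Hochberg adjustment and a threshold of 0.05. Log2 fold changes carry their standard error. All 17 libraries were fitted together, and all groups share the same estimate of the spread for a gene. Leaving out Xrn1-WT libraries can therefore change a call in Xrn1-AID. In Xrn1-AID, 3 of the 10 genes were higher and 0 lower after 10 min, where 19% of all features were called higher, 16.6% lower and 35.5% in all. After 30 min, 2 of 10 were higher and 0 lower, against 27.2%, 26.6% and 53.8% of all features. In Xrn1-WT, 2 of 10 were higher and 1 was lower after 10 min, where 19.7% of all features were higher, 24.6% lower and 44.2% called in all. After 30 min 2 of 10 were again higher and 1 lower, against 29.1%, 27.5% and 56.6%. Between 10 and 30 min, 0 of 10 were called in Xrn1-AID, also at an unadjusted p under 0.05 in edgeR and with DESeq2, where 19.8% of all features were higher, 22.1% lower and 41.8% called. In that step 1 of 10 was higher and 0 lower in Xrn1-WT, against 30.6%, 25.7% and 56.3% of all features. With both directions together, the share of the 10 genes called was below that of all features in each of these comparisons. The share called higher was not below it at 10 min, with 3 of 10 against 19% in Xrn1-AID and 2 of 10 against 19.7% in Xrn1-WT. Counts out of 10 are too coarse to read these shares as a property of the list.

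XRN1 encodes the exonuclease itself (VII, 175527 to 180113). The degron acts on the protein, so the mRNA does not show whether Xrn1 was lost. Its mRNA stood at 64.7, 48.9 and 61.9 CPM in Xrn1-AID libraries at 0 min, against 24.4, 38.5 and 12.2 CPM in Xrn1-WT libraries at 0 min. The groups did not overlap, and the lowest value was that of Xrn1-WT replicate 3. XRN1 mRNA was higher in Xrn1-AID by 1.23 ± 0.35 log2 units (adjusted p = 0.0153), or 0.89 (adjusted p = 0.0181) without the 2 libraries that stood apart, and between 0.89 and 1.68 when each library was left out in turn. The call was lost when libraries were scaled by size alone (1.21, adjusted p = 0.0862) and when only the 6 libraries compared were fitted (1.23, adjusted p = 0.0507). At 10 min XRN1 had 48.9, 51.7 and 52.0 CPM in Xrn1-AID, against 46.9, 20.9 and 39.2 CPM in Xrn1-WT, and at 30 min 34.1 and 70.0 CPM in Xrn1-AID, against 39.5, 47.6 and 34.3 CPM in Xrn1-WT. Neither difference passed (0.51, 95% interval -0.24 to 1.25, adjusted p = 0.28, and 0.36, interval -0.45 to 1.18, adjusted p = 0.531); the 10 min value was 0.27 without the 2 libraries and 0.62 after correction for GC content and coding length (adjusted p = 0.0499). XRN1 was also not called after NaCl, with changes of -0.20 and -0.17 in Xrn1-AID and of 0.51 and 0.70 in Xrn1-WT at 10 and 30 min. The Xrn1-WT changes were called without Xrn1-WT 0 min replicate 2 (0.97 and 1.15, adjusted p = 0.0349 and 0.01) and after correction for GC content and coding length (0.88 and 1.07, adjusted p = 0.00515 and 0.00071), and were 0.43 and 0.38 without the 2 libraries that stood apart.

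DCP1 encodes the regulatory subunit of the decapping enzyme (XV, 44938 to 45633). At 0 min it stood at 30.4, 28.1 and 26.0 CPM in Xrn1-AID libraries, against 73.8, 61.5 and 77.1 CPM in Xrn1-WT libraries. At 10 min it stood at 22.8, 26.8 and 23.9 CPM in Xrn1-AID, against 36.8, 42.5 and 38.9 CPM in Xrn1-WT, and at 30 min at 28.1 and 22.3 CPM in Xrn1-AID, against 29.5, 32.0 and 34.7 CPM in Xrn1-WT. All Xrn1-AID libraries of a time lay below all Xrn1-WT libraries of that time, by a gap that was wide at 0 min and narrow at 30 min. DCP1 mRNA was lower in Xrn1-AID by -1.33 ± 0.14 at 0 min (adjusted p = 1.72e-05) and by -0.68 ± 0.14 at 10 min (adjusted p = 0.00244), and the difference at 30 min did not pass (-0.35 ± 0.15, adjusted p = 0.107). Without the 2 libraries that stood apart the values at 0 and 10 min were -1.27 and -0.60.

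The DCP1 difference was smaller after correction for base composition and length. Its coding sequence is 696 bases long with 35.2% GC, and over 5768 genes the log2 difference between the arms had a Spearman correlation with GC content of 0.36 at 0 min, 0.20 at 10 min and 0.49 at 30 min. After correction of each library for GC content and coding length, DCP1 was lower in Xrn1-AID by -0.60 at 0 min (adjusted p = 0.000781), and the value at 10 min no longer passed (-0.26, adjusted p = 0.0571), nor did it with library size alone (-0.49, adjusted p = 0.0793). At 30 min the corrected value had the other sign and did not pass (0.24, adjusted p = 0.133). The part of GC content and length in the difference was not tested beyond this correction.

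DCP1 fell in Xrn1-WT by -0.85 ± 0.13 after 10 min of NaCl (adjusted p = 9.31e-05) and by -1.14 ± 0.13 after 30 min (adjusted p = 1.71e-06). Both calls held in each of 27 alternative settings, with ranges of -1.28 to -0.48 and of -1.24 to -0.70, the smaller size at 10 min being that after GC and length correction; without the 2 libraries they were -0.86 and -1.06. In Xrn1-AID the changes were -0.20 (interval -0.49 to 0.08) and -0.17 (interval -0.49 to 0.15). The test of the difference between the arms gave 0.98 ± 0.20 at 30 min (adjusted p = 0.0271), the only one of the 10 genes called there, where 1.55% of all features were called, and 0.64 ± 0.19 at 10 min (adjusted p = 0.0994), where 0 of 10 genes in edgeR and in DESeq2 and 0.775% of all features were called (2 of 10, DCP1 and EDC3, at an unadjusted p under 0.05). The 30 min call was lost when Xrn1-AID 0 min replicate 1 or 3, Xrn1-AID 30 min replicate 1, Xrn1-WT 0 min replicate 1 or Xrn1-WT 30 min replicate 1 was left out, with values from 0.81 to 1.04, when only the libraries compared were fitted (0.97, adjusted p = 0.0785), with either replicate number as a block (0.98, adjusted p = 0.0702 and 0.0683) and with library size alone (0.81, adjusted p = 0.256). After GC and length correction it held (0.84, adjusted p = 0.00859), as it did without the 2 libraries that stood apart (0.92, adjusted p = 0.0308). The step from 10 to 30 min in Xrn1-WT did not pass (-0.30, adjusted p = 0.071), but did with DESeq2 (-0.37, adjusted p = 0.0292) and after GC and length correction (-0.50, adjusted p = 0.000439). With library size alone that step was called with the other sign, at 0.58. GRE2, which ends 215 bases before DCP1 on the same strand, moved the other way with NaCl, by 5.55 and 4.89 in Xrn1-AID and by 4.76 and 4.91 in Xrn1-WT at 10 and 30 min.

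DCP2 encodes the catalytic subunit (XIV, 402652 to 405564) and was called in none of the 12 comparisons, also at an unadjusted p under 0.05. Xrn1-AID libraries held 58.2 to 72.8 CPM at 0 min, 74.1 to 90.6 CPM at 10 min and 51.5 and 86.1 CPM at 30 min. Xrn1-WT libraries held 46.0 to 95.3, 45.0 to 94.0 and 77.8 to 97.6 CPM at those times, so the arms overlapped throughout. Between the arms the log2 differences were -0.16 (interval -0.73 to 0.41), 0.25 (interval -0.33 to 0.83) and -0.36 (interval -1.0 to 0.29) at 0, 10 and 30 min, and the first and second of these were -0.42 and 0.05 without the 2 libraries that stood apart. With NaCl DCP2 changed by 0.30 and 0.06 in Xrn1-AID and by -0.11 and 0.26 in Xrn1-WT at 10 and 30 min (-0.16 and 0.02 in Xrn1-WT without the 2 libraries). After GC and length correction the 10 min value in Xrn1-AID and the 30 min value in Xrn1-WT passed (0.57 and 0.42, adjusted p = 0.012 and 0.0403).

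EDC2 and EDC1 encode small related enhancers of decapping. EDC2 (V, 222639 to 223076) stood at 32.5, 44.8 and 31.2 CPM in Xrn1-AID at 0 min, 230, 143 and 156 CPM at 10 min and 249 and 245 CPM at 30 min. In Xrn1-WT it stood at 36.7, 18.9 and 26.3 CPM at 0 min, 135, 193 and 133 CPM at 10 min and 181, 138 and 168 CPM at 30 min. Every library with NaCl lay above every library without it. EDC2 rose by 2.29 ± 0.25 at 10 min and 2.77 ± 0.27 at 30 min in Xrn1-AID (adjusted p = 2.36e-06 and 3.09e-07), and by 2.50 ± 0.25 and 2.57 ± 0.26 in Xrn1-WT (adjusted p = 9.14e-07 and 2.28e-07), or 2.25 and 2.56 without the 2 libraries that stood apart. At 30 min the Xrn1-AID libraries lay above the Xrn1-WT libraries, but the difference did not pass (0.61 ± 0.26, adjusted p = 0.109), except when only the 5 libraries compared were fitted (0.57, adjusted p = 0.0416).

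EDC1 (VII, 80659 to 81186) had 12.4, 15.9 and 11.7 CPM at 0 min in Xrn1-AID, 37.0, 30.4 and 32.0 CPM at 10 min and 23.9 and 19.8 CPM at 30 min. It rose by 1.31 ± 0.40 at 10 min (adjusted p = 0.0182) and did not pass at 30 min (0.71, interval -0.22 to 1.64, adjusted p = 0.187). The 30 min change passed under 3 alternatives, at 0.99 with library size alone, 0.74 when only the libraries compared were fitted and 0.73 without the 2 libraries that stood apart (adjusted p = 0.0197, 0.0185 and 0.0196). The 10 min call was lost when Xrn1-AID 0 min replicate 1 or 3 or Xrn1-AID 10 min replicate 1 was left out, at values of 1.26, 1.24 and 1.23. In Xrn1-WT it stood at 18.2, 9.03 and 39.4 CPM at 0 min, 21.2, 44.9 and 21.2 CPM at 10 min and 31.9, 20.2 and 32.7 CPM at 30 min. The values at 0 min spanned more than those at any other time, with a coefficient of variation of 70.0% against a median of 18.2% over 5109 genes. The changes of 0.38 and 0.34 in Xrn1-WT did not pass, but without Xrn1-WT 0 min replicate 3 they were 1.08 (adjusted p = 0.018) and 1.07 (adjusted p = 0.0149), and without both libraries that stood apart 0.62 (adjusted p = 0.0924) and 1.07 (adjusted p = 0.00232). Between the arms at 0 min EDC1 differed by -0.74 (interval -1.59 to 0.11, adjusted p = 0.165), a value of -0.04 without both libraries and of -1.11 without Xrn1-WT 0 min replicate 2 (adjusted p = 0.0174). No difference between the arms in the EDC1 response passed (0.93, interval -0.26 to 2.12, at 10 min and 0.37, interval -0.89 to 1.62, at 30 min), and without both libraries the values were 0.71 and -0.34.

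EDC3 encodes a scaffold that binds Dcp2 and Dhh1 (V, 126629 to 128284). At 0 min it stood at 78.4, 101 and 94.0 CPM in Xrn1-AID, against 116, 120 and 144 CPM in Xrn1-WT, without overlap. It was lower in Xrn1-AID by -0.47 ± 0.14 (adjusted p = 0.0203). The call was lost without Xrn1-WT 0 min replicate 3 (-0.38, adjusted p = 0.0719), without Xrn1-AID 0 min replicate 1 (-0.38, adjusted p = 0.0838), without the 2 libraries that stood apart (-0.38, adjusted p = 0.0603), when only the 6 libraries compared were fitted (-0.48, adjusted p = 0.077) and with library size alone (-0.40, adjusted p = 0.189). At 10 and 30 min the arms overlapped, at 94.9 to 115 and 98.1 to 110 CPM in Xrn1-AID and 93.8 to 117 and 102 to 124 CPM in Xrn1-WT. EDC3 was not called after NaCl in either arm, with changes of 0.24 and 0.19 in Xrn1-AID and of -0.27 and -0.19 in Xrn1-WT at 10 and 30 min (-0.12 and -0.07 in Xrn1-WT without the 2 libraries that stood apart).

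With XRN1, DCP1 and EDC3, 3 of the 10 genes were called between the arms at 0 min, 1 higher and 2 lower, where 16.2% of all features were higher, 16.4% lower and 32.6% called. At 10 min 2 of 10 were called, DCP1 lower and DCS1 higher (17.3% of all features were higher, 10.9% lower and 28.2% called). At 30 min 0 of 10 were called (11.5% of all features were higher, 11% lower and 22.5% called), while DCP1 and EDC2 had an unadjusted p under 0.05 in edgeR and 0 of 10 were called with DESeq2. The 2 libraries in Xrn1-AID at 30 min leave that comparison the least precise of the 3.

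**Figure D3:**
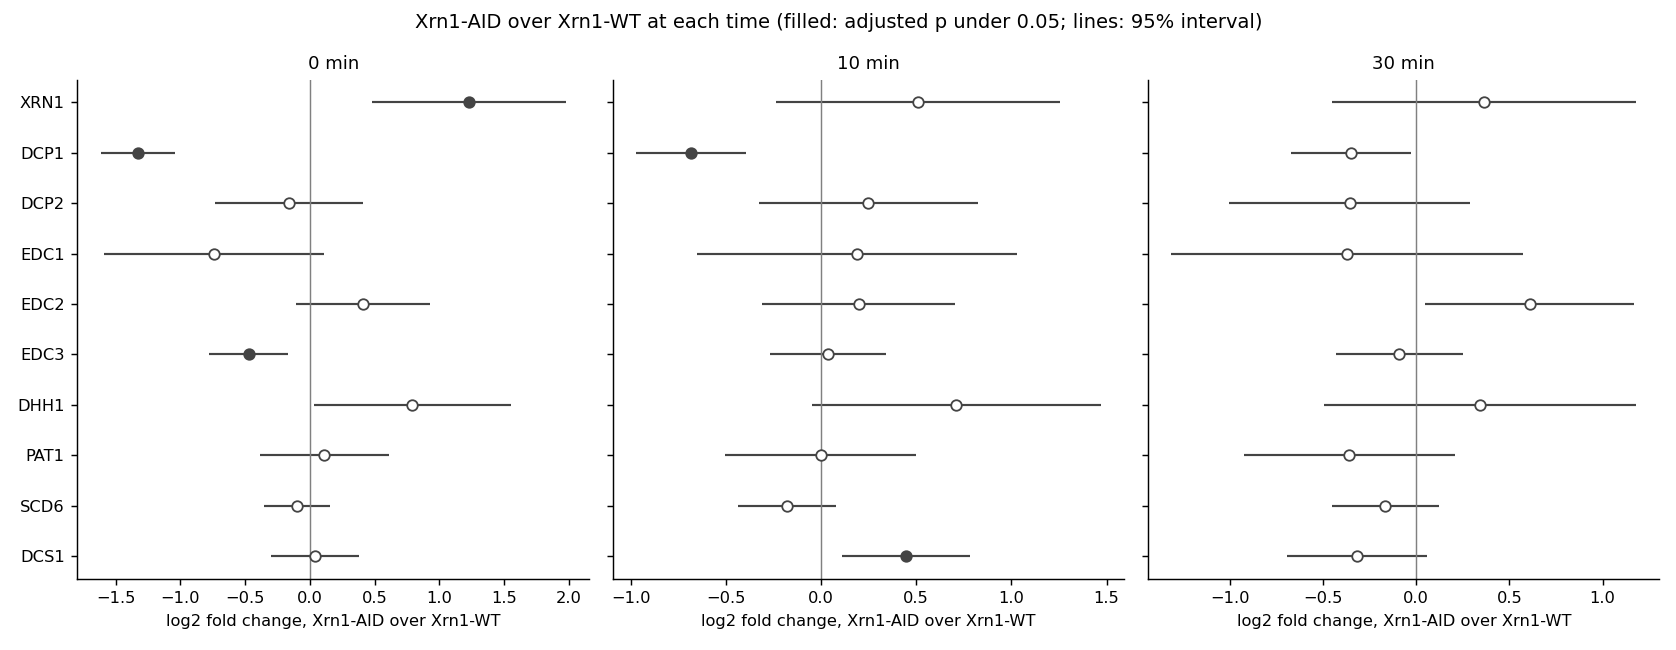
Log2 fold change of Xrn1-AID over Xrn1-WT (horizontal axes, own scale in each panel) for the 10 genes at 0, 10 and 30 min of NaCl, with 95% intervals; filled points have an adjusted p under 0.05. XRN1 is filled above 0 at 0 min, DCP1 below 0 at 0 and 10 min, EDC3 below 0 at 0 min and DCS1 above 0 at 10 min.

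DHH1, PAT1 and SCD6 encode activators of decapping that also repress translation, and none of the 3 was called in any of the 12 comparisons; DHH1 at 0 min between the arms had an unadjusted p under 0.05. DHH1 (IV, 170410 to 171930), the DEAD-box helicase, stood at 35.7, 36.1 and 41.7 CPM in Xrn1-AID at 0 min, against 22.8, 33.8 and 9.00 CPM in Xrn1-WT. The groups did not overlap, but the difference did not pass (0.79, interval 0.03 to 1.55, adjusted p = 0.101); without Xrn1-WT 0 min replicate 2 it was 1.26 (adjusted p = 0.0126), and without the 2 libraries that stood apart 0.41 (adjusted p = 0.142). At 10 min it stood at 52.2 to 64.7 CPM in Xrn1-AID, against 19.3 to 43.1 CPM in Xrn1-WT, also without passing (0.71, interval -0.05 to 1.47, adjusted p = 0.141). That value was 0.46 (adjusted p = 0.106) without the 2 libraries and 0.73 (adjusted p = 0.0326) without Xrn1-WT 0 min replicate 3 alone. In Xrn1-AID the 10 min libraries lay above the 0 min libraries, at a change of 0.58 (interval -0.18 to 1.33, adjusted p = 0.225). That change passed without the 2 Xrn1-WT libraries (0.59, adjusted p = 0.0148), which are not in this comparison but share its estimate of the spread. It also passed when only the libraries compared were fitted (0.60, adjusted p = 0.00406). The 30 min change in Xrn1-AID was 0.07. The NaCl changes in Xrn1-WT, 0.66 at 10 min and 0.52 at 30 min, passed without Xrn1-WT 0 min replicate 2 (1.13 and 0.99, adjusted p = 0.0192 and 0.0257), and the 10 min change also without Xrn1-WT 10 min replicate 2 (0.92, adjusted p = 0.0482). Without both libraries that stood apart they were 0.54 and 0.16 and did not pass.

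PAT1 (III, 250238 to 252628), which bridges the Lsm ring and the decapping enzyme, stood at 113 to 141 CPM in Xrn1-AID at 0 min, 81.0 to 103 CPM at 10 min and 78.2 and 109.5 CPM at 30 min. In Xrn1-WT it stood at 68.6 to 147, 75.0 to 103 and 106 to 134 CPM. The 10 min changes of -0.49 (interval -0.99 to 0.01) in Xrn1-AID and -0.37 (interval -0.87 to 0.13) in Xrn1-WT did not pass. Both passed without the 2 libraries that stood apart, at -0.48 (adjusted p = 0.015) and -0.55 (adjusted p = 0.0223). The 30 min changes were -0.46 (interval -1.03 to 0.11) in Xrn1-AID, which also passed without the 2 libraries (-0.44, adjusted p = 0.0291), and 0.01 in Xrn1-WT (-0.26 without them). Between the arms PAT1 differed by 0.11 and -0.36 at 0 and 30 min and by less than 0.01 at 10 min, and without the 2 libraries by -0.17 at 0 min and -0.10 at 10 min. The 30 min difference passed after GC and length correction (-0.72, adjusted p = 0.0394).

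SCD6 (XVI, 792687 to 793736), an RGG-motif protein that binds eIF4G, lay between 115 and 162 CPM in all 17 libraries. Its NaCl changes ran from -0.15 (interval -0.41 to 0.11) at 10 min in Xrn1-AID to 0.09 (interval -0.17 to 0.35) at 30 min in Xrn1-WT against 0 min. Between the arms it differed by -0.10, -0.18 and -0.17 at 0, 10 and 30 min, and without the 2 libraries by -0.08 and -0.06 at 0 and 10 min. After GC and length correction SCD6 was called lower in Xrn1-AID at all 3 times (-0.29, -0.30 and -0.32) and lower after 10 min of NaCl in Xrn1-AID and in Xrn1-WT (-0.31 and -0.30).

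DCS1 encodes the scavenger decapping enzyme (XII, 681186 to 682238) and had the largest NaCl changes of the 10 genes. It stood at 40.2, 36.0 and 35.9 CPM in Xrn1-AID at 0 min, 266, 318 and 346 CPM at 10 min and 390 and 372 CPM at 30 min. In Xrn1-WT it stood at 45.8, 31.1 and 32.3 CPM at 0 min, 208, 211 and 264 CPM at 10 min and 454, 479 and 491 CPM at 30 min. At 0 min the arms overlapped, at 10 min the Xrn1-AID libraries lay above the Xrn1-WT libraries and at 30 min below them. DCS1 rose by 3.05 ± 0.17 and 3.35 ± 0.18 in Xrn1-AID at 10 and 30 min (adjusted p = 1.66e-09 and 1.7e-09), 8.29-fold and 10.2-fold. It rose by 2.65 ± 0.17 and 3.71 ± 0.18 in Xrn1-WT (adjusted p = 5.14e-09 and 8.63e-11), 6.26-fold and 13.1-fold, or by 2.59 and 3.64 without the 2 libraries that stood apart.

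From 10 to 30 min DCS1 rose by 1.06 ± 0.16 in Xrn1-WT (adjusted p = 3.4e-05), against 0.30 (interval -0.08 to 0.67, adjusted p = 0.191) in Xrn1-AID. The difference between the arms in that step did not pass (-0.76 ± 0.24, adjusted p = 0.102), where 0 of 10 genes in edgeR and in DESeq2 and 1.37% of all features were called and DCS1 alone of the 10 had an unadjusted p under 0.05. DCS1 was higher in Xrn1-AID at 10 min by 0.45 ± 0.16 (adjusted p = 0.0455), a call lost under 18 of 27 alternatives, among them library size alone (0.62, adjusted p = 0.0798), DESeq2 (0.36, adjusted p = 0.0698), both replicate blocks and the removal of the 2 libraries that stood apart (0.43, adjusted p = 0.0747). At 30 min the difference was -0.32 (interval -0.69 to 0.06, adjusted p = 0.215).

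**Figure D4:**
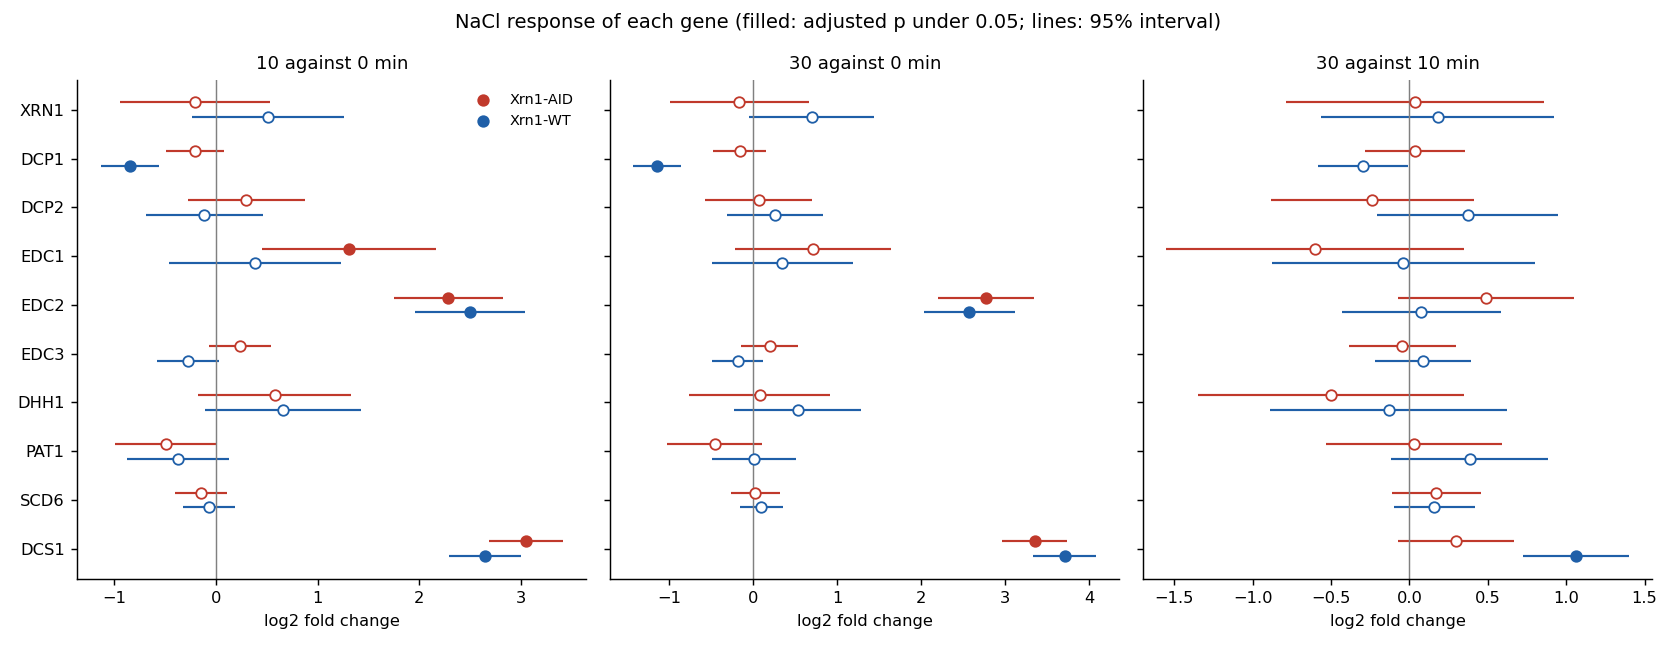
Log2 fold change with NaCl (horizontal axes, own scale in each panel) of the 10 genes in Xrn1-AID (red, upper) and Xrn1-WT (blue, lower) for 10 against 0, 30 against 0 and 30 against 10 min, with 95% intervals; filled points have an adjusted p under 0.05. DCS1 and EDC2 are filled in both arms in the first and second panels, DCP1 is filled below 0 in Xrn1-WT, EDC1 is filled in Xrn1-AID at 10 min, and DCS1 in Xrn1-WT is filled in the panel of 30 against 10 min.

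Over the 17 libraries EDC2 and DCS1 had similar profiles, with a Pearson correlation of log2 CPM of 0.95, and XRN1 and DHH1 had one of 0.84. XRN1 and DCP1 ran opposite (-0.79), as did DHH1 and DCP1 (-0.76). These values describe libraries that share NaCl, auxin and composition, and carry no p. Among tested genes with a mean of at least 10 CPM, the 3 most like DCS1 were CYB2, ALD2 and ALD3 (0.995, 0.995 and 0.994), and those most like EDC2 were SOD2, THO1 and GLK1 (0.98 for each). Those most like XRN1 were GEM1, YME1 and SPT10 (0.97, 0.95 and 0.95), and those most like DCP1 were PFD1, YBL036C and SEC65 (0.97, 0.96 and 0.93). DHH1 was most like YJU2 (0.96), HLJ1 and DAM1 (0.95 each), EDC1 most like SDH7 (0.94), MIM2 and BNA1 (0.91 each), and DCP2 most like TFB1 (0.90), PEP5 and YPR089W (0.86 each). EDC3 was most like BUG1, BUD2 and IMH1 (0.85, 0.83 and 0.76), PAT1 most like AFT2 (0.86), HDA1 and INM1 (0.84 each), and SCD6 most like SEC11, RTC6 and BOL2 (0.79, 0.78 and 0.77).

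The other lists held 57 genes of RNA decay and cap binding, all tested, with the nuclear RAT1 among them. Of these 57 genes, 4 were higher and 13 lower after 10 min in Xrn1-AID (19% and 16.6% of all features). After 30 min 3 were higher and 22 lower there (27.2% and 26.6% of all features). In Xrn1-WT 5 were higher and 23 lower after 10 min (19.7% and 24.6% of all features), and 8 higher and 27 lower after 30 min (29.1% and 27.5%). The median log2 change of the 57 genes was -0.08 and -0.34 in Xrn1-AID and -0.33 and -0.41 in Xrn1-WT, where the medians of all features were -0.03, 0.01, -0.06 and 0.01. The median of the 10 genes themselves was 0.27 and 0.07 in Xrn1-AID and 0.16 and 0.30 in Xrn1-WT. From 10 to 30 min 5 of the 57 were higher and 15 lower in Xrn1-AID (19.8% and 22.1% of all features). In Xrn1-WT 12 were higher and 12 lower in that step (30.6% and 25.7% of all features).

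DCS2, whose protein is a paralog of Dcs1, had 8.95, 8.45 and 10.1 CPM in Xrn1-AID at 0 min, 111, 71.0 and 102 CPM at 10 min and 571 and 550 CPM at 30 min. In Xrn1-WT it had 19.2, 6.46 and 12.03 CPM at 0 min, 35.7, 63.8 and 64.6 CPM at 10 min and 546, 571 and 611 CPM at 30 min. It rose by 3.37 ± 0.32 and 5.93 ± 0.37 in Xrn1-AID and by 2.12 ± 0.31 and 5.52 ± 0.35 in Xrn1-WT. The Xrn1-AID libraries lay above the Xrn1-WT libraries at 10 min, without passing (0.79 ± 0.29, adjusted p = 0.0537). From 10 to 30 min DCS2 rose by a further 2.57 ± 0.32 in Xrn1-AID and 3.40 ± 0.32 in Xrn1-WT.

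RAT1, the nuclear counterpart of Xrn1, was not called at 10 min and was lower at 30 min by -1.36 ± 0.24 in Xrn1-AID and -1.19 ± 0.21 in Xrn1-WT. Between the arms RAT1 was not called (0.24, -0.14 and 0.06 at 0, 10 and 30 min). In the cap-binding and poly(A)-binding list, 5 of 8 genes in Xrn1-AID and 6 of 8 in Xrn1-WT were lower at 30 min, among them PAB1, the poly(A)-binding protein (-2.21 ± 0.22 and -2.09 ± 0.19), and TIF4631, an eIF4G (-1.98 ± 0.50 and -2.04 ± 0.43). Of 14 Ski and exosome genes, which serve decay from the 3' end, 8 in Xrn1-AID and 11 in Xrn1-WT were lower at 30 min. Of all features, 26.6% in Xrn1-AID and 27.5% in Xrn1-WT were lower at 30 min. At 10 min 19% of all features were higher and 16.6% lower in Xrn1-AID, and 19.7% and 24.6% in Xrn1-WT. Of 11 deadenylase genes, which shorten the poly(A) tail, 1 was higher and 3 were lower at 10 min in each arm. Among them PAN2, a subunit of the Pan2–Pan3 deadenylase, was lower by -1.21 ± 0.24 in Xrn1-AID and -1.81 ± 0.25 in Xrn1-WT, and CDC39, the Ccr4–Not scaffold, by -0.83 ± 0.24 and -0.77 ± 0.24. At 30 min PAN2 was the 1 called in Xrn1-AID (-0.83 ± 0.27), and MOT2, PAN3 and POP2 were higher in Xrn1-WT (0.66 ± 0.15, 0.59 ± 0.16 and 0.41 ± 0.13). Of 6 genes for proteins that direct decay of chosen mRNAs, VTS1 was lower at 10 min by -2.72 ± 0.20 in Xrn1-AID and -2.64 ± 0.20 in Xrn1-WT, and TIS11 was higher at 30 min by 3.53 ± 0.28 in Xrn1-AID and 2.64 ± 0.26 in Xrn1-WT.

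Between the arms, 2 of the 57 genes were higher and 12 lower in Xrn1-AID at 0 min, against 16.2% and 16.4% of all features. At 10 min 3 were higher and 8 lower (17.3% and 10.9% of all features). At 30 min 1 was higher and 10 were lower (11.5% and 11% of all features). Of the 7 genes of the Lsm1–7 ring, which binds shortened mRNAs and acts with Pat1, 3 were lower at each time. LSM2 was lower by -2.20 ± 0.33, -2.07 ± 0.33 and -2.27 ± 0.39, LSM4 by -1.53 ± 0.23, -0.89 ± 0.23 and -1.76 ± 0.27, and LSM7 by -1.62 ± 0.24, -0.93 ± 0.24 and -1.17 ± 0.28. These values are not corrected for GC content and coding length, with which the difference between the arms correlated across genes. Alternative settings are given for the 10 genes only. LSM1, the subunit particular to the cytoplasmic ring, was not called between the arms (0.06, 0.30 and 0.12). With NaCl LSM1 was lower at 30 min in Xrn1-WT by -0.34 ± 0.14 (adjusted p = 0.0461), and its changes did not pass at 10 min in Xrn1-WT (-0.21) or at 10 and 30 min in Xrn1-AID (0.02 and -0.29). For the difference between the arms in the NaCl response, edgeR called 0 of the 57 genes at 10 and at 30 min. Of all features, 0.775% and 1.55% were called there. An unadjusted p under 0.05 was found for 10 and 12 of the 57 genes, and DESeq2 called 1 and 0 of them. Shares of all features at an unadjusted p under 0.05, or with DESeq2, are not given here. Counts of that kind, for the 57 or the 10 genes, therefore have no matching background in this report.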

How the data were processed

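Poly(A)-selected RNA of 17 libraries was sequenced with 50-base single-end reads, per the labels' protocols. The authors deposited raw counts of reads for each gene. The submitters' processing notes name featureCounts 1.5.1, TopHat2 2.1.0, the build sacCer3 and DESeq2 1.22.2; what each tool did, the strand setting, the rule for reads with several alignments and the annotation are not given in the sources used here. None of the 10 coding sequences overlaps another RefSeq gene or shares a 50-base stretch with the rest of the genome. Of the 7126 counted features 6048 matched a RefSeq gene by systematic name, and overlap with the other features was not checked. Groups came from the labels.

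Counts were filtered by expected expression (6195 features kept) and scaled by TMM, and 1 mean per group was fitted with edgeR 4.0.16 in R 4.3.3 (quasi-likelihood, robust, Benjamini-Hochberg threshold 0.05); standard errors are the fold change over the root of F. The fit was tested on simulated data. Alternatives were DESeq2 1.42.0, other scalings and filters, replicate blocks, only the groups compared and each library left out. A correction of counts for coding length and GC content (5768 genes, natural splines with 5 df, over RefSeq coding sequences) and the removal of 2 libraries were chosen after seeing the data. The 10 genes and all lists were chosen with earlier results of these data known. The rule for named genes took the 10 genes, DCS2, RAT1, LSM1, up to 3 called genes of each other list by size of change and the 3 genes most correlated with each of the 10; of the other lists only some genes that the rule took are printed. Replicate numbers showed no pairing of the libraries, in a check that cannot exclude shared cultures or batches. Error values cover the spread between libraries, and counts carry no molecular identifiers.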

Additional observations from a re-analysis of the deposited data

Results flagged for a closer look

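The response of DCP1 to 30 min of NaCl differed between the arms by 0.98 ± 0.20 log2 units in the test of that difference (adjusted p = 0.0271). DCP1 changed by -0.17 in Xrn1-AID and by -1.14 in Xrn1-WT. The arms differed most before NaCl, at 28.2 ± 2.19 CPM in Xrn1-AID and 70.8 ± 8.19 CPM in Xrn1-WT (SD, n = 3 each), and least after 30 min, at 25.2 CPM in Xrn1-AID (n = 2) and 32.1 CPM in Xrn1-WT. Across 5768 genes the difference between the arms at 0 min had a Spearman correlation of 0.36 with GC content and 0.26 with coding length. After correction for both, the DCP1 response differed by 0.84. The DCP1 call held under 18 of 27 alternatives. It was lost with library size alone (0.81, adjusted p = 0.256), with either replicate block, with only the libraries compared and without some single libraries.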

How the results depend on the processing

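Each of the 10 genes was tested in 12 comparisons under 27 alternatives, giving 3240 values, of which 3139 kept the side of the threshold and, where called, the direction; 39 lost the call, 59 gained one and 3 were called with the other sign. The changes of EDC2 and DCS1 at 10 and 30 min against 0 min and those of DCP1 in Xrn1-WT kept their calls under every alternative. The 3 values with the other sign came from library size alone, in the step from 10 to 30 min: EDC3 in Xrn1-AID at 0.57 (adjusted p = 0.0451), and DCP1 at 0.58 (adjusted p = 0.0125) and EDC1 at 0.88 (adjusted p = 0.0151) in Xrn1-WT. Under that scaling the median log2 change of all features in this step was 0.62 in Xrn1-AID and 0.94 in Xrn1-WT, against 0.01 and 0.08 with TMM. 

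Counts of called genes are given against those of the report, and only the larger relative moves are listed. The share of all features called under each setting is not given beside them. These counts thus show how calls moved with the setting and are not a result about the 10 genes. With library size alone they were 5 against 3 at 10 min in Xrn1-AID, 5 against 0 from 10 to 30 min in Xrn1-AID, 6 against 3, 5 against 3 and 8 against 1 in Xrn1-WT at 10 min, 30 min and from 10 to 30 min, 1 against 3 and 0 against 2 between the arms at 0 and 10 min, and 0 against 1 for the difference of the 30 min response. With only the groups compared they were 5 against 3 and, from 10 to 30 min, 1 against 0 in Xrn1-AID, 1 against 3, 1 against 2 and 1 against 0 between the arms at 0, 10 and 30 min, and 0 against 1 for the difference at 30 min. With GC and length correction they were 5 against 3 in Xrn1-AID at 10 min, 6 against 3, 5 against 3 and 3 against 1 in Xrn1-WT, and 2 against 0 between the arms at 30 min. Without the 2 libraries they were 5 against 3 and 4 against 2 in Xrn1-AID at 10 and 30 min, and 1 against 2 between the arms at 10 min. Smaller moves there came from PAT1 at 10 min and EDC1 at 30 min in Xrn1-WT, which gained a call. EDC3 lost its call between the arms at 0 min. DESeq2's size factors and its Wald test each gave 2 against 1 in Xrn1-WT from 10 to 30 min and 1 against 2 between the arms at 10 min. 

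With single libraries left out the counts ranged from 2 to 4, 2 to 3 and 0 to 1 in Xrn1-AID at 10 min, 30 min and from 10 to 30 min, from 3 to 5, 3 to 5 and 1 to 2 in Xrn1-WT, from 2 to 5, 1 to 3 and 0 to 0 between the arms at 0, 10 and 30 min, and from 0 to 1 for the 30 min difference. The cause of these moves was not tested. Deviations from the group means correlated above 0.1 in 11 of 40 same-numbered pairs of libraries, by title and by description number. Pairs with other numbers did so in 32 of 80. The deviations also followed coding length and GC content in several libraries, so this check cannot tell whether same-numbered libraries shared a culture or batch. With either number as a replicate block, 1 gene against 2 was called between the arms at 10 min (DCS1 at 0.45, adjusted p = 0.0663 and 0.0689) and 0 against 1 for the 30 min difference (DCP1 at 0.98, adjusted p = 0.0702 and 0.0683). The 10 genes had at least 186 counts in every library, and replicates differed beyond counting noise. The effect of depth was not tested.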
